A study of Mus musculus with 9 samples.

Results

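The data are RNA-seq profiles of the caput epididymis of Ros1-/- mice set directly against those of Nicol-/- mice. The comparison covered the 13272 of 24346 genes in the deposited table that reached at least 1 RPKM in at least 3 of these 6 libraries, out of 9 libraries in the series. RPKM is the number of reads of a gene scaled by the length of its exons in kilobases and by the depth of the library. The value that decided entry, the lowest of the 3 highest among the 6 libraries, was 1.0009 RPKM for Gbp8, just inside the minimum, and 0.99998 RPKM for Mybl2, just outside it. Each group held 3 libraries: Ros1-/- mice, Nicol-/- mice, and Nicol+/- mice, which were the only control of the series and whose levels are given beside the others but stayed outside the fit. All mice were 14 weeks old, and the initial segment, the most proximal stretch of the epididymis, was dissected together with the caput. The Nicol allele was made by CRISPR/Cas9 in B6D2F1 zygotes, hybrids of C57BL/6 and DBA/2, and removes the whole coding sequence. The Ros1 mutants came from an existing line for which the sources used here name no strain background, and no Ros1+/- library was analysed here. The labels do not say how many animals stand behind a library, so each p-value covers only the spread from library to library, which may be technical. The paper states for its experiments in general that there were at least 3 biological repeats, without naming the animals behind these libraries.

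Lumicrine signalling is communication along the lumen of the male tract. In the mouse, germ cells of the testis secrete NELL2, and NICOL, a small secreted protein encoded by Gm1673, acts together with it. They travel with the luminal fluid to the initial segment, where the receptor tyrosine kinase ROS1 on the epithelium drives ERK signalling and the transcription factors Etv1, Etv4 and Etv5. The Ros1-/- line is a knockout of the receptor, and the Nicol-/- epididymis receives fluid without the cofactor of the ligand. Comparing them directly asks where loss of the receptor and loss of the cofactor leave different transcriptomes.

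Depth, estimated from the step between the low values of each library, was 15431228, 15500654 and 11540364 reads in Ros1-/- and 9087972, 8721238 and 15153117 reads in Nicol-/-. Across genes, log2 levels had correlations of 0.981 to 0.993 within the knockout groups and 0.981 to 0.988 between them. The label of the tissue was borne out by Gpx5, a secreted glutathione peroxidase of the caput, at 32186, 25418 and 32589 RPKM in Ros1-/- and 27131, 27644 and 27585 RPKM in Nicol-/-. Several libraries stood apart. Nicol-/- replicate 2 had summed erythrocyte markers of 168 RPKM, against 26.1 and 17.5 RPKM in the other Nicol-/- libraries. Its sums of granulocyte and adipocyte markers, at 20.8 and 86.6 RPKM, were also the highest of the 6 libraries. Nicol-/- replicate 3 held the highest value of the 6 libraries for 11 of 22 tested initial segment genes and for 13 of 17 immediate early and heat shock genes. Ros1-/- replicate 3 had the most ribosomal precursor RNA, with 17294 RPKM of Rn45s against 4700 and 6356 RPKM in the other Ros1-/- libraries, and the highest summed level of 20 interferon response genes, at 190 RPKM against 71.2 and 83.3 RPKM. Their part in the results was not tested beyond the fits that leave each of them out.

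The targeted genes matched the labels. Gm1673 (chromosome 5, 33983433 to 33985009, mm10) was at 19.6, 16.8 and 16.6 RPKM in Ros1-/-, was listed at 0 in each Nicol-/- library, and was at 8.69, 9.09 and 6.05 RPKM in Nicol+/-. Ros1 (chromosome 10, 52044863 to 52195398) was at 8.06, 8.24 and 9.32 RPKM in Ros1-/-, at 18.996, 24.7 and 16.8 RPKM in Nicol-/-, against 40.7, 41.9 and 48.0 RPKM in Nicol+/-. Transcript from the Ros1 locus was thus still counted in Ros1-/- at a mean of 8.54 ± 0.68 RPKM, against 20.2 ± 4.07 RPKM in Nicol-/- (SD, n = 3 each), and the sources used here do not name the exons that the mutation removes. Its log2 fold change, on the scale of log2(RPKM + 1) used throughout, was -1.14 ± 0.14 (SE; adjusted p = 0.029, limma with Benjamini-Hochberg adjustment). The call for Ros1 was lost in the fits without Nicol-/- replicate 1 or without any of the Ros1-/- libraries. The adjusted p for Gm1673 was 1.62e-05, while an exact permutation test of 3 libraries against 3, 2-sided, gave 0.1, the smallest p it can give.

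**Figure D1:**
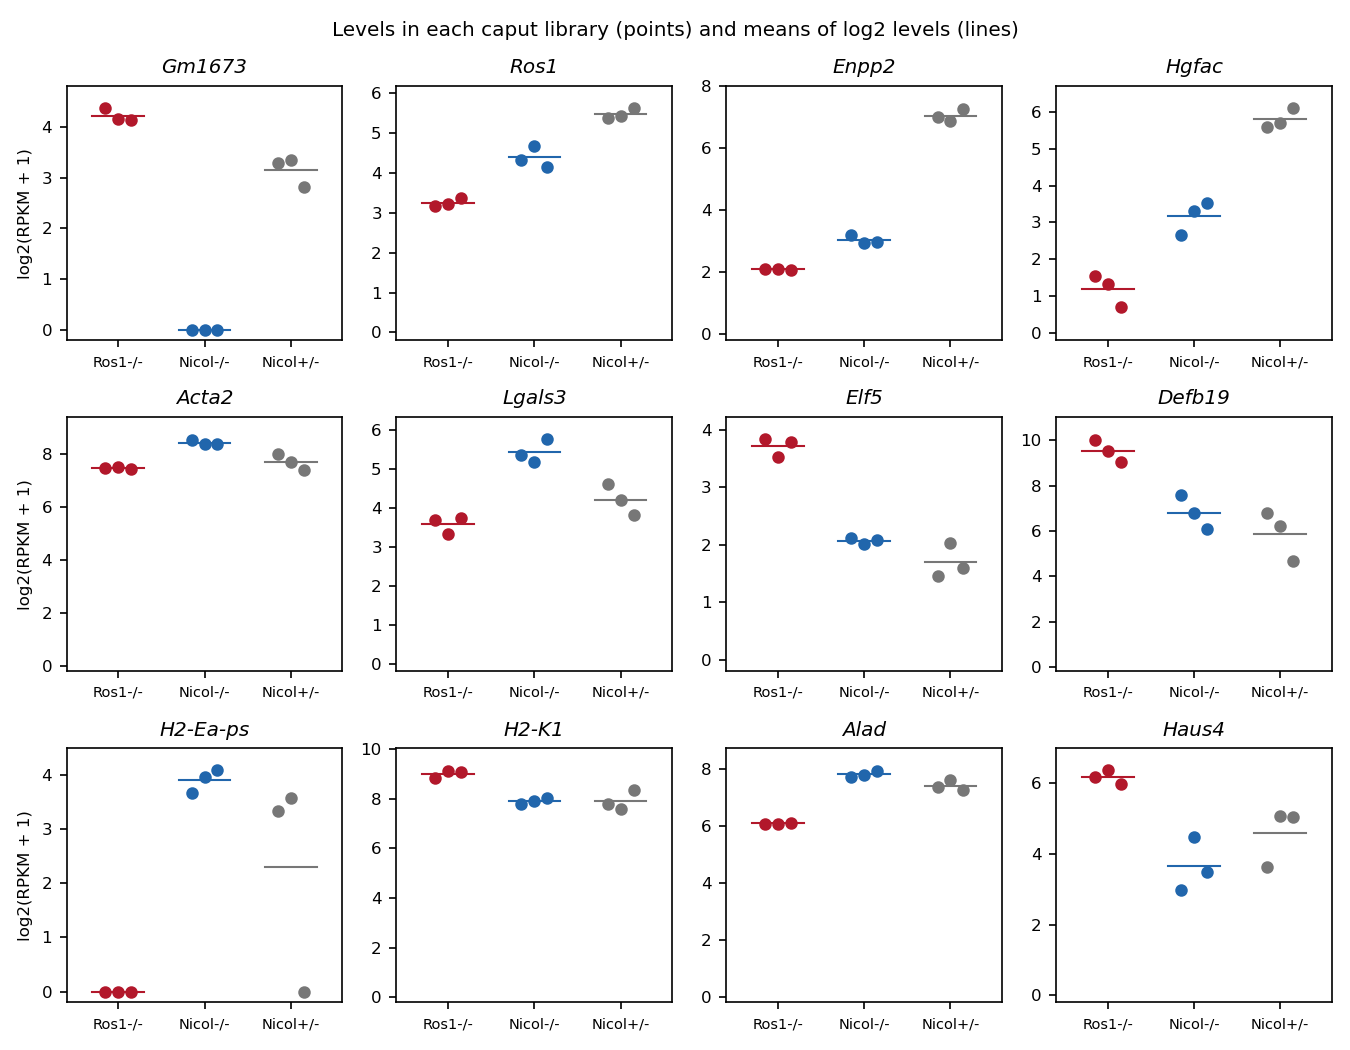
Each panel shows a gene, with log2(RPKM + 1) on the y axis and the 3 groups on the x axis (Ros1-/- in red, Nicol-/- in blue, Nicol+/- in grey). Points are libraries and lines are means of the log2 levels. Enpp2 and Hgfac are lowest in Ros1-/-, next in Nicol-/- and highest in Nicol+/-, whereas Acta2 and Lgals3 are highest in Nicol-/-, and H2-Ea-ps is at 0 in the 3 Ros1-/- libraries and in Nicol+/- replicate 3.

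The knockouts differed at few genes. At an adjusted p under 0.05, 89 genes were lower in Ros1-/- than in Nicol-/- (0.671% of the 13272 tested) and 31 were higher (0.234%). The median log2 fold change over all genes was 0.01, and 2242 genes were under 0.05 before adjustment. Of the 120 called genes, 44 differed by more than 1 on the log2 scale, 29 of them lower and 15 higher. All 120 had libraries that did not overlap between the groups, but so did 3150 of the tested genes (23.7%). The counts depended on single libraries. Without Ros1-/- replicate 1, 2 or 3 the test called 5, 5 and 13 genes lower and 4, 3 and 9 higher. Without Nicol-/- replicate 1, 2 or 3 it called 14, 64 and 160 lower and 9, 23 and 138 higher. Each of these fits has fewer libraries to estimate the spread from. Of the 120 calls, 111, 113 and 103 were lost without Ros1-/- replicate 1, 2 or 3, and 103, 64 and 8 without Nicol-/- replicate 1, 2 or 3. The 7 genes called in each of these 6 fits were Gm1673, H2-Ea-ps, Gm11127, Alad, Hdhd3, Elf5 and Apoo-ps, and the other 113 calls were lost in at least 1 of them. No called gene changed its direction under any of 16 alternative fits. With libraries that do not overlap, leaving out a library or changing the pseudocount cannot turn a direction, so this is no measure of stability.

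**Figure D2:**
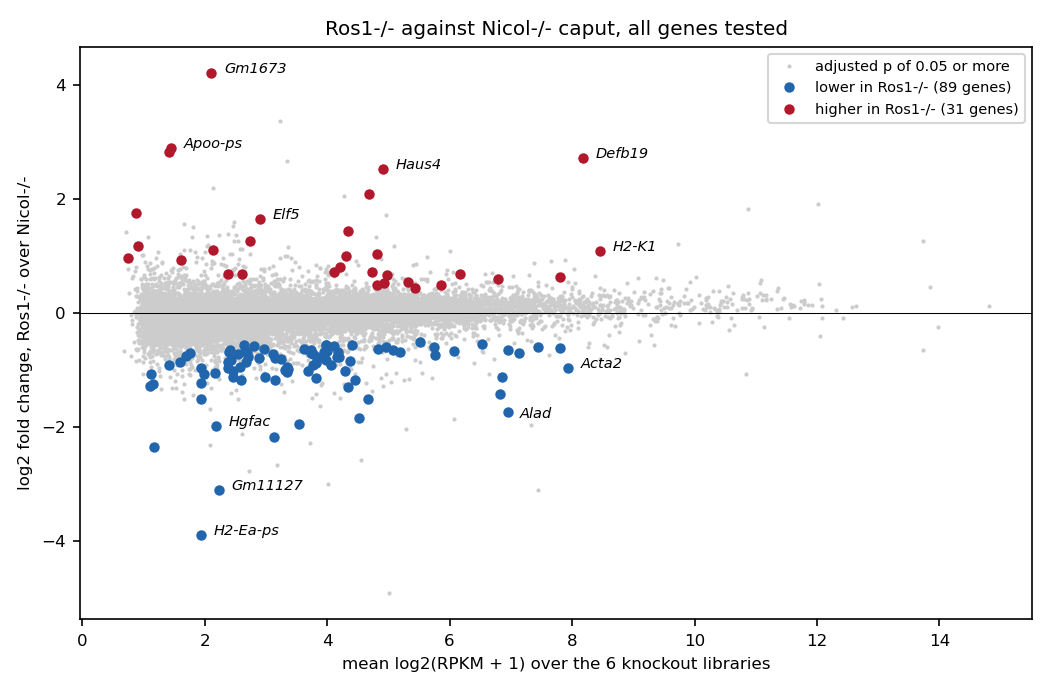
Log2 fold change of Ros1-/- over Nicol-/- (y axis) against the mean log2(RPKM + 1) of the 6 knockout libraries (x axis) for 13272 genes. Blue points are the 89 genes called lower in Ros1-/-, red points the 31 called higher and grey points the rest, with some called genes named.

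The called genes were also placed against their level in Nicol+/-. For 68 of the 89 genes lower in Ros1-/-, the Nicol+/- mean lay between those of the knockouts, for 12 it lay above both and for 9 below both. The Nicol-/- mean exceeded the Nicol+/- mean for 77 of these 89 genes, and for 60 of them every Nicol-/- library was above every Nicol+/- library. For 45 of the 89, every Ros1-/- library was below every Nicol+/- library. Among the 31 genes higher in Ros1-/-, the Nicol+/- mean lay between for 14, below both for 13 and above both for 4, and for 23 every Ros1-/- library exceeded every Nicol+/- library. The called genes were chosen by a difference between the Ros1-/- and Nicol-/- libraries, which favours knockout levels outside those of Nicol+/-. No share over all tested genes was worked out for the comparisons with Nicol+/-. Whether 60 of 89, 45 of 89 or 23 of 31 is unusual thus cannot be told. These counts describe the called genes and were not tested.

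Among 12 tested genes of the lumicrine pathway, 1 was called lower and 1 higher, Ros1 and Gm1673, the genes knocked out in these groups. The other 10 did not pass the test, with 0.904% called among all genes. Ptpn6, the phosphatase SHP-1 that binds ROS1, was at 14.0, 14.96 and 11.8 RPKM in Ros1-/- and at 10.04, 8.43 and 10.9 RPKM in Nicol-/- (log2 fold change 0.43 ± 0.12, adjusted p = 0.16). The groups did not overlap, yet the difference missed the threshold. Grb2, an adaptor between receptor tyrosine kinases and RAS, differed by 0.17 ± 0.07 (adjusted p = 0.27). Nell2 was under the minimum for testing, at 0.155 to 0.186 RPKM in Ros1-/- and 0.111 to 0.323 RPKM in Nicol-/-.

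None of 24 tested ERK targets and feedback regulators passed the test, although 10 were lower at an unadjusted p under 0.05 and none higher, against 9.18% lower and 7.72% higher among all genes. The median log2 fold change was -0.31, against 0.01 over all genes. The list summed to 299, 287 and 369 RPKM in Ros1-/- and 383, 400 and 873 RPKM in Nicol-/-, and Nicol-/- replicate 3 was the highest of the 6 libraries for 11 of the tested members. Etv1 was at 2.02, 2.61 and 2.44 RPKM in Ros1-/- and at 6.64, 4.70 and 4.62 RPKM in Nicol-/-, against 13.6, 10.5 and 14.9 RPKM in Nicol+/- (log2 fold change -0.90 ± 0.15, adjusted p = 0.053). Etv5 was at 1.92, 2.01 and 1.49 RPKM in Ros1-/- and at 2.70, 3.54 and 5.95 RPKM in Nicol-/-, against 148 to 195 RPKM in Nicol+/- (-0.81 ± 0.23, adjusted p = 0.16). Etv4 was under 1 RPKM in every knockout library. For both tested factors the Ros1-/- libraries were all below the Nicol-/- libraries. Ccnd1, the cyclin D of growth factor signalling, differed by -0.49 ± 0.09 (adjusted p = 0.067), Ier3 by -1.19 ± 0.27 (adjusted p = 0.098) and Emp1 by -0.54 ± 0.14 (adjusted p = 0.13).

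Enpp2, which encodes autotaxin, the secreted enzyme that makes lysophosphatidic acid, was the single gene called among 22 tested initial segment genes. It was at 3.33, 3.30 and 3.21 RPKM in Ros1-/- and at 8.13, 6.76 and 6.95 RPKM in Nicol-/-, with 127, 117 and 154 RPKM in Nicol+/-. The Ros1-/- libraries lay close together and below all Nicol-/- libraries (log2 fold change -0.95 ± 0.10, adjusted p = 0.018). The call was kept without Nicol-/- replicate 2 or 3 and lost without any other library. Rnase10, an initial segment secretory protein, was at 1.68, 1.84 and 1.12 RPKM in Ros1-/- and at 8.66, 7.91 and 57.5 RPKM in Nicol-/-, with Nicol-/- replicate 3 far above the others, and missed the threshold (-2.76 ± 0.68, adjusted p = 0.11). Rnase1 had a log2 fold change of -1.32 ± 0.23 (adjusted p = 0.060). Cst12, a cystatin, was the list's member furthest in the other direction, at 2.14, 2.17 and 2.76 RPKM in Ros1-/-, against 0, 0 and 1.32 RPKM in Nicol-/-, with 2148, 2100 and 3675 RPKM in Nicol+/- (adjusted p = 0.11).

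The secreted proteases of this region gave no difference between the knockouts that passed the test. Ovch2 was at 34.6, 34.9 and 36.0 RPKM in Ros1-/- and 39.1, 32.5 and 32.8 RPKM in Nicol-/-, with a log2 fold change of 0.02 (95% interval -0.19 to 0.23, adjusted p = 0.93), against 578 to 847 RPKM in Nicol+/-. The sign of this small value turned in the fits without Nicol-/- replicate 2, at -0.025, or without replicate 3, at -0.019, and with quantile normalization, at -0.016. Adam28 was under 0.2 RPKM in all 6 knockout libraries and at 702 to 1158 RPKM in Nicol+/-, so it was not tested. For Gpx5 the interval of the log2 fold change was -0.35 to 0.60. Of 26 tested caput genes outside the initial segment, 0 passed the limma test, and the median was 0.03. At an unadjusted p under 0.05, 5 were lower and 2 higher, against 9.18% lower and 7.72% higher among all genes. Plac8 came closest, at 684, 693 and 628 RPKM in Ros1-/- and 492, 417 and 402 RPKM in Nicol-/- (0.62 ± 0.11, adjusted p = 0.055).

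Hgfac, the serine protease that activates hepatocyte growth factor, fell furthest on a fixed list of receptor tyrosine kinases, their ligands and activators. It was the 1 call among 22 tested members. Ros1, Pdgfra and the growth factor gene Mdk, also called lower, are not on this list. Hgfac was at 1.92, 1.52 and 0.629 RPKM in Ros1-/- and at 5.28, 8.96 and 10.5 RPKM in Nicol-/-, with 47.2, 51.1 and 67.3 RPKM in Nicol+/- (log2 fold change -1.97 ± 0.29, adjusted p = 0.040). No Ros1-/- library reached the lowest Nicol-/- library, but the call was kept in only 1 of the 6 fits that leave out a library. Hgfac starts at position 35041509 of chromosome 5, on the chromosome of Gm1673. Within 10 Mb of the start of Gm1673, 3 of 150 tested genes were called (2%, against 0.904% of all tested genes): the deleted Gm1673 itself, Hgfac and Emilin1, an elastic fibre glycoprotein (-0.91 ± 0.14, adjusted p = 0.044). Within 10 Mb of Ros1, 1 of 70 was called (1.43%), Ros1 itself, and nothing is read from either share. Fgfr1 had a log2 fold change of -0.42 ± 0.08 (adjusted p = 0.067) and Ephb4 of -0.46 ± 0.11 (adjusted p = 0.12).

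Smooth muscle genes held the most calls of any list examined. The lists were chosen with earlier results of these data known, so this rank is a description and was not tested. Smooth muscle cells wrap the epididymal duct and drive its peristalsis. Of 13 tested smooth muscle markers, 6 were called lower in Ros1-/- than in Nicol-/- and 0 higher, 11 were lower at an unadjusted p under 0.05, and the median log2 fold change was -0.64. Over all genes, 0.671% were called lower, 9.18% were lower at an unadjusted p under 0.05, and the median was 0.01. Acta2, the smooth muscle alpha-actin, was at 176, 178 and 169 RPKM in Ros1-/- and at 369, 325 and 330 RPKM in Nicol-/- (log2 fold change -0.96 ± 0.08, adjusted p = 0.0082), with 254, 206 and 164 RPKM in Nicol+/-. Tagln, an actin-binding protein of smooth muscle, was at 105, 99.8 and 92.4 RPKM in Ros1-/- and 143, 163 and 158 RPKM in Nicol-/-, with 114, 111 and 91.1 RPKM in Nicol+/- (-0.64 ± 0.09, adjusted p = 0.037). For both genes every Nicol+/- library lay below every Nicol-/- library.

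Cnn1, calponin, was at 43.5, 43.8 and 40.7 RPKM in Ros1-/- and 63.9, 58.4 and 73.2 RPKM in Nicol-/- (log2 fold change -0.59 ± 0.10, adjusted p = 0.049), against 36.4 to 44.7 RPKM in Nicol+/-. Actg2, the enteric gamma-actin, was at 26.6, 25.2 and 32.0 RPKM in Ros1-/- and 46.3, 44.3 and 45.3 RPKM in Nicol-/- (-0.69 ± 0.10, adjusted p = 0.040), but at 1037 to 1329 RPKM in Nicol+/-. Actg2 thus differed from Acta2, Tagln and Cnn1 in its Nicol+/- level. The other called members, Smtn and Pcp4l1, were at -0.77 and -1.12. Myh11, the smooth muscle myosin heavy chain, missed the threshold (-0.77 ± 0.14, adjusted p = 0.060). The count of 6 fell to 0 without Ros1-/- replicate 1 or 2, to 2 without Ros1-/- replicate 3, to 1 without Nicol-/- replicate 1 and to 3 without Nicol-/- replicate 2, and was 7 without Nicol-/- replicate 3, while the median stayed between -0.67 and -0.56. In bulk tissue, fewer cells of a type and less RNA per cell cannot be told apart.

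Further contractile and cytoskeletal genes were among the lower calls and were chosen after their values were seen. Tpm2, a tropomyosin, was at 43.5, 41.8 and 37.4 RPKM in Ros1-/- and 69.8, 62.6 and 73.9 RPKM in Nicol-/-. Acta1, the skeletal alpha-actin, was at 2.86, 2.37 and 3.46 RPKM in Ros1-/- and 7.62, 5.86 and 7.19 RPKM in Nicol-/-. Vcl, vinculin, which links actin to adhesion sites, was at 15.2, 17.2 and 17.2 RPKM in Ros1-/- and 26.7, 25.0 and 23.0 RPKM in Nicol-/-. All 3 genes had Ros1-/- libraries below every Nicol-/- library, with log2 fold changes of -0.74, -1.02 and -0.56. Mir143hg, the host transcript of a pair of microRNAs of smooth muscle, came under the rule for large changes at 14.4, 14.4 and 12.3 RPKM in Ros1-/- and 30.9, 34.97 and 30.3 RPKM in Nicol-/- (-1.17 ± 0.10, adjusted p = 0.0076).

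Genes of contractile cells are known targets of serum response factor, which binds the CArG box, here CC, then 6 letters that are each A or T, then GG. The palindromic motif was searched in the 300 bases from 250 before to 50 after each start in RefSeq (GRCm38.p6). It was found in 2 of the 68 lower genes that had such a sequence (2.94%), in 0 of 23 higher genes, in 171 of 10542 tested genes (1.62%) and in 1.81% of all 27025 genes of the table. The matches among the called genes were in Acta1, where the box begins 73 bases before the start, and in Vcl, where it begins 227 bases before the start. Both sequences are shown with the motif in capitals.
Acta1, chr8:123894726-123895025, minus strand: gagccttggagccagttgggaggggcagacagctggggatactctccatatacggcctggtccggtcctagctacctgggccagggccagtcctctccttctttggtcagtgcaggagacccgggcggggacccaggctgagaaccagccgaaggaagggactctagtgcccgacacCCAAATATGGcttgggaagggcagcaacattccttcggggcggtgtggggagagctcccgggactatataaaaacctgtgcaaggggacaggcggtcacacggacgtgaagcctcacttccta
Vcl, chr14:20929148-20929447, plus strand: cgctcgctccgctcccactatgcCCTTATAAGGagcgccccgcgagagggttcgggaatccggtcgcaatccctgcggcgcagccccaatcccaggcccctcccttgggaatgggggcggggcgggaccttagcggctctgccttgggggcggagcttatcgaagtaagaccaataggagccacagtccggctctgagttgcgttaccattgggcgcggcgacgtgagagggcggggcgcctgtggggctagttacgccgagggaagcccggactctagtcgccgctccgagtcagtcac
A match of letters is a description and not a binding site. Tagln and Actg2 were among the lower genes not searched.

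**Figure D3:**
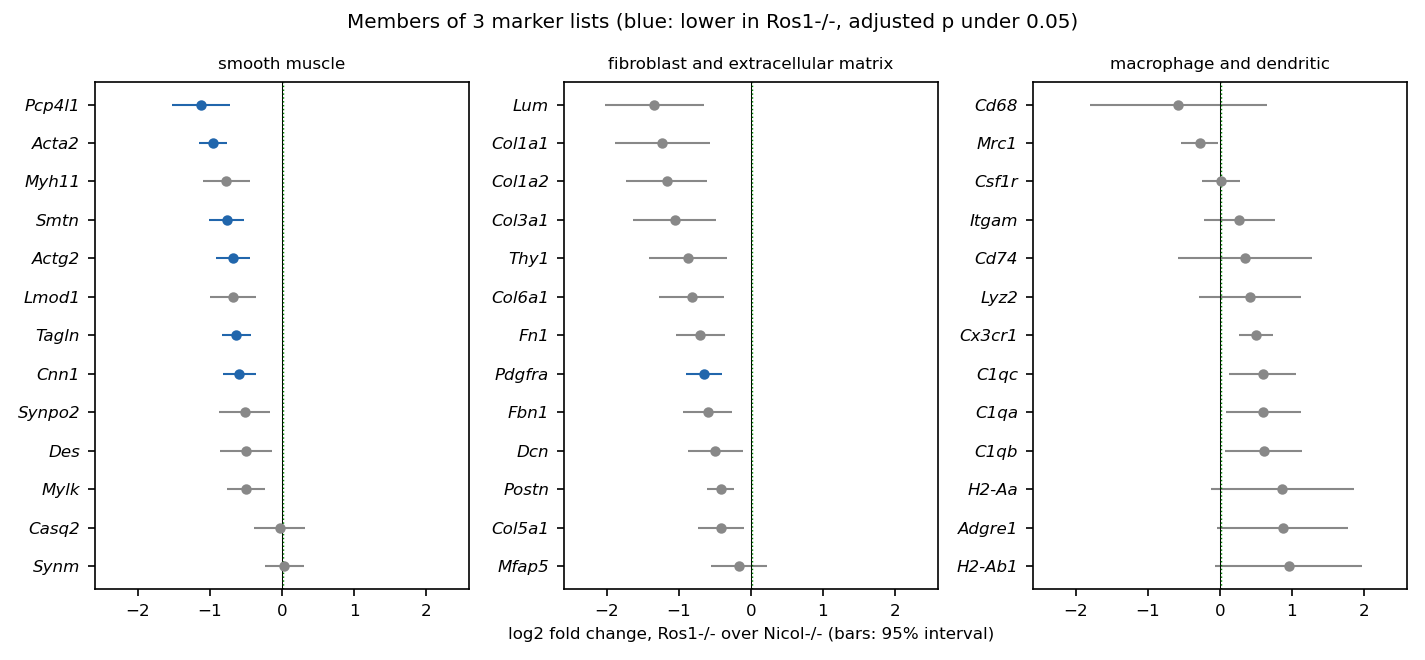
Log2 fold change of Ros1-/- over Nicol-/- (x axis) for the tested members of 3 marker lists (y axis), with 95% intervals as bars. Members called lower in Ros1-/- are in blue and those that did not pass the test in grey; the dotted line is the median of all genes. Smooth muscle and fibroblast members lie mostly below 0, with medians of -0.64 and -0.70, and macrophage members mostly above, with a median of 0.50.

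Fibroblast and matrix genes had fewer calls. Of 13 tested members, 1 was called lower, 12 were lower at an unadjusted p under 0.05 and none was higher, against 0.671% called lower and 9.18% lower at an unadjusted p among all genes, and the median log2 fold change was -0.70. Pdgfra, the receptor that marks fibroblasts, was at 10.6, 12.6 and 12.2 RPKM in Ros1-/- and 21.4, 17.6 and 18.5 RPKM in Nicol-/-, with 31.5 to 42.2 RPKM in Nicol+/- (-0.65 ± 0.10, adjusted p = 0.047). Its call was kept in 1 of the 6 fits that leave out a library. Postn, periostin, had a log2 fold change of -0.42 ± 0.08 (adjusted p = 0.067), Col1a2, a chain of collagen I, of -1.17 ± 0.24 (adjusted p = 0.075) and Fn1, fibronectin, of -0.70 ± 0.15 (adjusted p = 0.082). The summed level of the 14 listed genes was 253 to 338 RPKM in Ros1-/-, 386 to 534 RPKM in Nicol-/- and 283 to 378 RPKM in Nicol+/-.

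Bmp4, Mdk and Ccnd2 came under the rule for large changes. Bmp4, a bone morphogenetic protein, was at 4.54, 4.996 and 5.23 RPKM in Ros1-/- and 13.1, 9.88 and 14.1 RPKM in Nicol-/- (log2 fold change -1.16 ± 0.14, adjusted p = 0.025). Mdk, the heparin-binding growth factor midkine, was at 11.2, 12.5 and 11.996 RPKM in Ros1-/- and 26.7, 26.6 and 40.1 RPKM in Nicol-/- (-1.29 ± 0.16, adjusted p = 0.029). Ccnd2, cyclin D2, was at 3.06, 2.92 and 3.04 RPKM in Ros1-/- and 9.004, 7.01 and 8.07 RPKM in Nicol-/- (-1.17 ± 0.11, adjusted p = 0.013). In all 3 genes the Nicol+/- means lay between the knockouts. The fixed list of cell cycle genes, which does not hold Ccnd2, had 11 tested members with 0 calls in either direction by limma, 0 at an unadjusted p under 0.05, and a median of -0.04.

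Lgals3 and Ckb also came under the rule for large changes. At both, every Nicol-/- library was above every Nicol+/- library, as at 60 of the 89 lower genes. This count has no share over all tested genes beside it. Lgals3, the beta-galactoside-binding lectin galectin-3, was at 12.03, 8.997 and 12.5 RPKM in Ros1-/- and 39.9, 35.2 and 53.3 RPKM in Nicol-/-, with 13.03 to 23.6 RPKM in Nicol+/- (log2 fold change -1.84 ± 0.18, adjusted p = 0.014). Ckb, the brain-type creatine kinase, was at 69.0, 69.8 and 65.3 RPKM in Ros1-/- and 191, 132 and 244 RPKM in Nicol-/-, with 74.8 to 82.6 RPKM in Nicol+/- (-1.42 ± 0.20, adjusted p = 0.040). Both genes were higher in Nicol-/- than in either other group in every library. Aqp1, a water channel, was the 1 call among 17 tested channels, pumps and transporters, at 13.2, 13.7 and 16.9 RPKM in Ros1-/- and 27.3, 22.9 and 30.5 RPKM in Nicol-/- (-0.84 ± 0.13, adjusted p = 0.047). Scnn1a, a subunit of the epithelial sodium channel, was at -0.44 ± 0.11 (adjusted p = 0.11).

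Elf5, an ETS transcription factor of secretory epithelia such as the mammary gland, was among the most stable rises. It was at 13.3, 10.6 and 12.8 RPKM in Ros1-/- and at 3.34, 3.06 and 3.24 RPKM in Nicol-/-, with 1.75, 3.09 and 2.04 RPKM in Nicol+/- (log2 fold change 1.65 ± 0.11, adjusted p = 0.0020). Every Ros1-/- library was above every other library of the series. Defb19, a beta-defensin, was at 1045, 745 and 521 RPKM in Ros1-/- and 192, 109 and 66.0 RPKM in Nicol-/-, with 110, 73.3 and 24.2 RPKM in Nicol+/- (2.72 ± 0.40, adjusted p = 0.040). Its call was kept in 2 of the 6 fits without a library. It was the only call among 29 tested beta-defensins, whose median was 0.18 and whose members ran from -2.02 to 2.72. Defb43 was next in p, at 0.90 ± 0.24 (adjusted p = 0.14), and Defb47 was at 79.7, 103 and 64.2 RPKM in Ros1-/- and 221, 169 and 861 RPKM in Nicol-/- (-1.96 ± 0.57, adjusted p = 0.16).

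Genes of the major histocompatibility complex on chromosome 17 were called in both directions. The classical class I gene H2-K1 was at 452, 556 and 529 RPKM in Ros1-/- and 218, 238 and 261 RPKM in Nicol-/-, with 217, 191 and 321 RPKM in Nicol+/- (log2 fold change 1.09 ± 0.11, adjusted p = 0.018). H2-DMb1, a chain of the peptide exchanger H2-DM, was at 27.4, 26.6 and 27.6 RPKM in Ros1-/- and 10.7, 12.4 and 16.6 RPKM in Nicol-/-, with 14.0, 18.7 and 33.3 RPKM in Nicol+/- (1.01 ± 0.15, adjusted p = 0.040). H2-L, another class I gene, was at 38.2, 60.4 and 62.0 RPKM in Ros1-/- and 7.40, 11.3 and 17.8 RPKM in Nicol-/-, with 3.73, 23.2 and 45.5 RPKM in Nicol+/- (2.09 ± 0.31, adjusted p = 0.040), and it has no position in the annotation used. For H2-DMb1 and H2-L, Nicol+/- replicate 3 thus reached the level of the Ros1-/- libraries. Class I genes are near-identical paralogs, and how reads matching more than 1 of them were counted is not stated, so their values are uncertain.

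Other genes of the complex were lower or listed at 0 in Ros1-/-. H2-Ea-ps (chromosome 17, 34341952 to 34344645), a class II alpha-chain gene that the annotation lists as a transcribed pseudogene, was listed at 0 in the 3 Ros1-/- libraries and was at 11.6, 14.4 and 15.9 RPKM in Nicol-/- (adjusted p = 7.47e-05). In Nicol+/- it was at 9.02, 10.8 and 0 RPKM. Gm11127, a class I-like gene at 36055816 to 36058371, was at 0.743, 0.810 and 0.323 RPKM in Ros1-/- and at 10.4, 12.3 and 16.2 RPKM in Nicol-/- (log2 fold change -3.10 ± 0.19, adjusted p = 0.0018), with 11.1, 10.4 and 0.402 RPKM in Nicol+/-. At both genes Nicol+/- replicate 3 therefore had the level of the Ros1-/- libraries and the other Nicol+/- libraries that of Nicol-/-. Within 2 Mb of the start of H2-Ea-ps, 5 of 147 tested genes were called (3.4%, against 0.904% of all tested genes), 3 lower and 2 higher, the fifth being the protease gene Adamts10. Groups did not overlap for 25.9% of the genes in this window, against 23.7% of all tested genes. The complex is known to differ in sequence and in expressed genes between inbred mouse strains. Between the Ros1-/- and Nicol-/- libraries, strain background and Ros1 genotype cannot be told apart. Nicol+/- replicate 3, with Ros1 at 48.0 RPKM, was also low at H2-Ea-ps and Gm11127, and the cause was not tested.

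Neighbouring genes on chromosome 4 were lower. Alad, the second enzyme of haem synthesis (62505984 to 62520063), was at 66.1, 66.8 and 67.8 RPKM in Ros1-/- and 209, 219 and 245 RPKM in Nicol-/-, with 164, 193 and 151 RPKM in Nicol+/- (log2 fold change -1.73 ± 0.08, adjusted p = 0.00036). Its neighbour Hdhd3 (62499054 to 62502200), a predicted phosphatase of the haloacid dehalogenase type, was at 12.3, 15.8 and 14.2 RPKM in Ros1-/- and 41.5, 40.6 and 42.6 RPKM in Nicol-/-, with 38.4 to 44.2 RPKM in Nicol+/- (-1.50 ± 0.10, adjusted p = 0.0020). At both genes the Nicol+/- libraries were on the side of Nicol-/-. Mup5, a major urinary protein gene, was listed at 0 in each Ros1-/- library and was at 2.58, 3.65 and 6.93 RPKM in Nicol-/- (adjusted p = 0.025). These 3 were the only calls among 18 tested genes within 1 Mb of Alad (16.7%). Alad and Glo1, the glyoxalase gene on chromosome 17, are known to vary in copy number between inbred strains, and Glo1 was at 58.3, 50.6 and 48.5 RPKM in Ros1-/- and 85.6, 77.2 and 88.9 RPKM in Nicol-/- (-0.67 ± 0.10, adjusted p = 0.040). Glo1 was chosen after its values were seen. Copy number was not measured here, and its part in these differences was not tested.

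**Figure D4:**
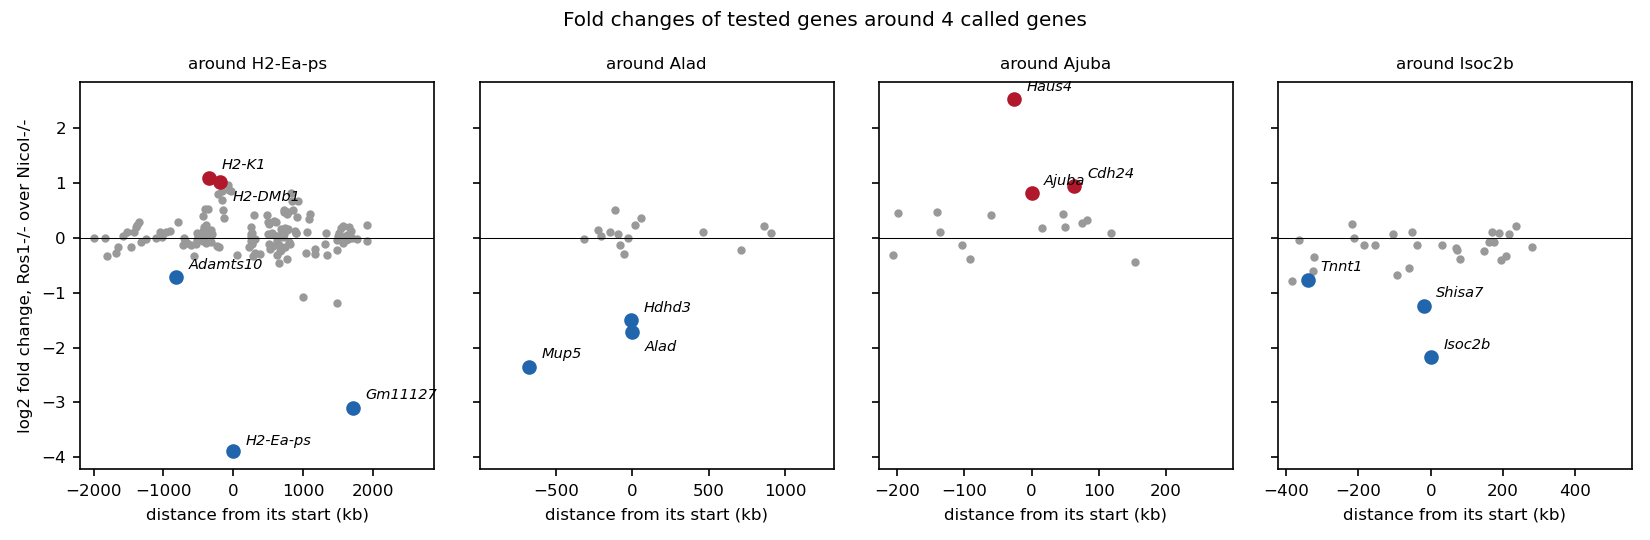
Log2 fold change of Ros1-/- over Nicol-/- (y axis) by distance in kb from the start of H2-Ea-ps, Alad, Ajuba and Isoc2b (x axis, a panel each) for the tested genes around them. Blue points were called lower in Ros1-/-, red points higher, and grey points did not pass the test. The called genes stand among neighbours that were not called, with 5 called of 147 around H2-Ea-ps and 3 of 18 around Alad.

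Called genes lay beside other called genes elsewhere too. Of neighbouring called genes whose starts are within 250 kb, there were 14 pairs, made up of 26 genes, and 12 pairs went in the same direction. No expected number of pairs was worked out, and 74.2% of all calls were lower, so grouping of calls was not tested. Around Ajuba on chromosome 14, Haus4, Ajuba and Cdh24 were higher in Ros1-/-, 3 of 17 tested genes within 250 kb (17.6%). Haus4, a subunit of the augmin complex of the mitotic spindle, was at 70.8, 81.0 and 62.3 RPKM in Ros1-/- and 6.95, 21.2 and 10.1 RPKM in Nicol-/-, with 11.5, 32.4 and 31.7 RPKM in Nicol+/- (log2 fold change 2.52 ± 0.34, adjusted p = 0.037). Ajuba, a LIM-domain protein of cell junctions and Hippo signalling, was at 23.4, 24.0 and 23.1 RPKM in Ros1-/- and 11.8, 13.8 and 13.5 RPKM in Nicol-/- (0.81 ± 0.08, adjusted p = 0.018).

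Around Isoc2b on chromosome 7, 3 of 30 tested genes within 400 kb were lower (10%). Isoc2b, an isochorismatase-domain gene, was at 2.13, 3.92 and 3.65 RPKM in Ros1-/- and 21.2, 17.7 and 14.7 RPKM in Nicol-/-, with 14.7 to 25.7 RPKM in Nicol+/- (log2 fold change -2.17 ± 0.20, adjusted p = 0.013). Only the fit without Ros1-/- replicate 2 lost this call. Its neighbour Shisa7 was under 0.8 RPKM in each Ros1-/- library and at 1.81 to 2.76 RPKM in Nicol-/-. The windows around Ajuba, Isoc2b, Alad and H2-Ea-ps were drawn after the calls were seen, so their shares, beside 0.904% over all tested genes, describe where the calls lie.

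The remaining large changes were single genes. Apoo-ps, a transcribed pseudogene on chromosome 13, was at 6.60, 5.47 and 7.46 RPKM in Ros1-/-, against 0, 0.00040 and 0.0034 RPKM in Nicol-/-, with 1.58, 7.30 and 9.92 RPKM in Nicol+/- (adjusted p = 0.00036). Mzt1, a small partner of the gamma-tubulin complex, was at 34.1, 34.0 and 29.6 RPKM in Ros1-/- and 12.5, 12.2 and 9.54 RPKM in Nicol-/- (log2 fold change 1.44 ± 0.12, adjusted p = 0.0076). Wdr25, a WD-repeat gene, was at 40.5, 43.2 and 35.5 RPKM in Ros1-/- and 19.4, 17.8 and 18.8 RPKM in Nicol-/- (1.05 ± 0.09, adjusted p = 0.0095). In Mzt1 and Wdr25 every Ros1-/- library exceeded every library of the other groups.

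Klc3, a kinesin light chain of spermatids, was at 32.4, 36.0 and 31.4 RPKM in Ros1-/- and 21.1, 19.2 and 19.1 RPKM in Nicol-/-, and the Nicol+/- libraries, at 32.6 to 36.4 RPKM, lay with Ros1-/- (log2 fold change 0.72 ± 0.09, adjusted p = 0.025). Coro1a, an actin regulator of leucocytes, was at 9.46, 7.79 and 10.95 RPKM in Ros1-/- and 2.38, 3.598 and 4.02 RPKM in Nicol-/- (1.27 ± 0.18, adjusted p = 0.040). Coro1a stood beside the macrophage list, which had a higher median in Ros1-/- and 0 calls. Gm10653, a transcribed pseudogene, differed by -1.94 ± 0.21, Cdca7l by -1.51 ± 0.16 and the long noncoding 2810047C21Rik1 by 1.103 ± 0.12, and all 3 were called.

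Among structural RNAs, 1 gene was called. Snora74a, a small nucleolar RNA, was at 3.36, 6.79 and 9.49 RPKM in Ros1-/-, was listed at 0 in each Nicol-/- library, and was at 6.05, 0 and 0 RPKM in Nicol+/- (adjusted p = 0.018). It belonged to a list of structural and largely non-polyadenylated RNAs with 10 tested members. Rn45s was at 4700, 6356 and 17294 RPKM in Ros1-/- and 1922, 1934 and 2579 RPKM in Nicol-/-, with 592 to 1185 RPKM in Nicol+/- (log2 fold change 1.92 ± 0.45, adjusted p = 0.11). The libraries were made by selecting mRNA, and the part of this carry-over in the other differences was not tested. Among 13 snoRNA host genes, Snhg7 was called at 42.0, 38.3 and 35.7 RPKM in Ros1-/- and 23.1, 26.7 and 22.1 RPKM in Nicol-/- (0.67 ± 0.10, adjusted p = 0.042). Over all tested genes, 0.234% were called higher.

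Markers of other cells that a dissection could carry gave no call, and their summed levels overlapped in part. None of the members found in the table for the lists named here was at 0 in all 6 libraries. The 14 macrophage and dendritic markers summed to 428 to 735 RPKM in Ros1-/- and 285 to 557 RPKM in Nicol-/-. Of the 13 tested, 0 were called by limma, and the median was 0.50. At an unadjusted p under 0.05, 4 were higher and 1 lower, against 7.72% higher and 9.18% lower among all genes. Cx3cr1, the fractalkine receptor of epididymal mononuclear phagocytes, was at 6.26, 5.95 and 6.09 RPKM in Ros1-/- and 4.37, 4.16 and 3.54 RPKM in Nicol-/- (0.50 ± 0.10, adjusted p = 0.073). Endothelial markers summed to 85.7 to 92.2 RPKM in Ros1-/- and 80.5 to 89.5 RPKM in Nicol-/-, with 0 calls among 13. Unlike the smooth muscle sums of 463 to 504 RPKM in Ros1-/- and 808 to 860 RPKM in Nicol-/-, the endothelial sums of the groups overlapped.

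Germ cell and sperm markers summed to 376, 401 and 886 RPKM in Ros1-/- and to 330, 434 and 838 RPKM in Nicol-/-, highest in replicate 3 of each group. Multiciliated cell markers, which would come from efferent ducts, summed to 48.25 to 68.3 RPKM in Ros1-/- and 72.45 to 151.5 RPKM in Nicol-/-, highest in Nicol-/- replicate 3. Adipocyte markers summed to 10.2 to 15.1 RPKM in Ros1-/- and 19.4 to 86.6 RPKM in Nicol-/-, highest in Nicol-/- replicate 2. Of 3 tested none passed. Adipocyte sums were thus higher in Nicol-/- like the smooth muscle and fibroblast sums, and the part of tissue around the duct in those differences was not tested. Basal cell markers summed to 123 to 184 RPKM in Ros1-/- and 158 to 208 RPKM in Nicol-/-, and clear cell markers to 153 to 172 RPKM in Ros1-/- and 162 to 186 RPKM in Nicol-/-, without a call in 10 and 8 tested members.

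Immediate early and heat shock genes had a median of -0.83 over 17 tested members, with 0 calls by limma. At an unadjusted p under 0.05, 3 were lower and 0 higher, against 9.18% lower and 7.72% higher among all genes. Egr1 was at 6.12, 4.62 and 21.6 RPKM in Ros1-/- and 25.6, 44.8 and 154 RPKM in Nicol-/- (log2 fold change -2.57 ± 0.73, adjusted p = 0.16). Fos was at 3.88, 1.98 and 13.8 RPKM in Ros1-/- and 16.9, 10.5 and 118 RPKM in Nicol-/- (-2.28 ± 0.93, adjusted p = 0.28), so its groups overlapped. Both genes are also counted in the ERK list, and in both groups replicate 3 was the highest library.

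The housekeeping and metabolic lists held no calls. Cytosolic ribosomal proteins had a median log2 fold change of 0.14 over 35 members, respiratory chain and ATP synthase 0.17 over 42, endoplasmic reticulum chaperones 0.16 over 22, and cholesterol synthesis 0.15 over 18. Glutathione and metallothionein genes had a median of -0.04 over 24, clock genes -0.06 over 18, and androgen action genes -0.01 over 10. At an unadjusted p under 0.05, 8 ribosomal, 7 respiratory and 8 chaperone genes were higher and none was lower, against 7.72% higher and 9.18% lower among all genes. The androgen action list had 0 genes under that value in either direction. Interferon response genes had a median of 0.38 over 11 members with 0 under that value, and lipocalins and cystatins -0.09 over 16 with 3 lower and 1 higher. T and NK cell, B and plasma cell, nerve and Schwann cell and nuclear-retained RNA lists had 4, 3, 5 and 4 tested members and no call, erythrocyte markers had 1 tested member and no call, and no granulocyte marker reached the minimum.

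**Figure D5:**
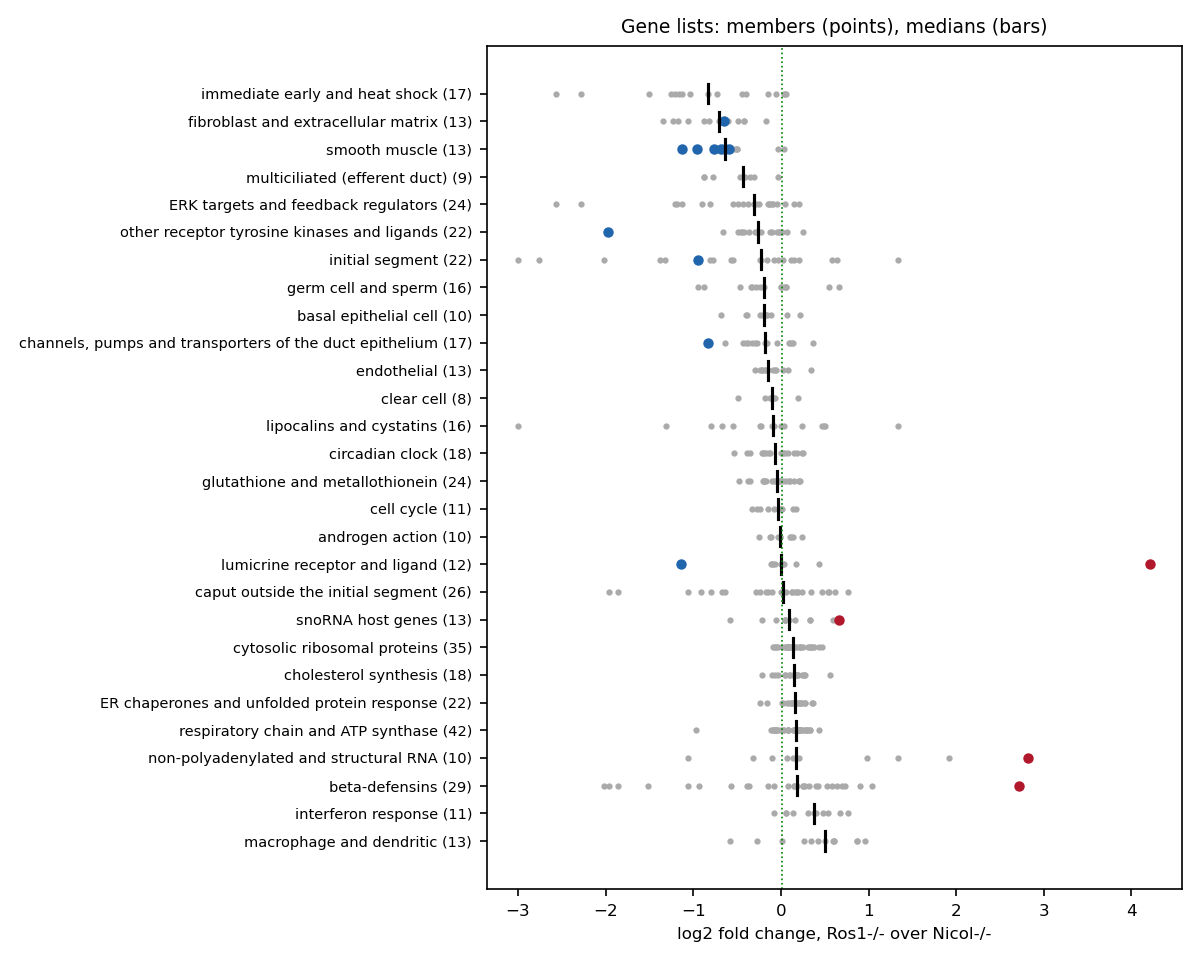
Log2 fold change of Ros1-/- over Nicol-/- (x axis) for the members of each list with at least 8 tested genes (y axis, the number tested in brackets). Grey points did not pass the test, blue points were called lower and red points higher; black bars are list medians and the dotted line the median of all genes, 0.01. Smooth muscle has the most calls, 6 of 13, all lower.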

How the data were processed

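RNA-seq was done on caput epididymis, including the initial segment, from 3 Ros1-/-, 3 Nicol-/- and 3 Nicol+/- libraries; the series text speaks of 4 per group and 3 are listed. The authors prepared stranded mRNA libraries, mapped single-ended reads to mm10 with TopHat2 2.1.1, and calculated RPKM with Cufflinks 2.2.1. The deposited table holds normalized FPKM values, here called RPKM as the reads are single-ended, and a normalized count, a signal per gene that the authors had already scaled between libraries. The signal served only to estimate depth from its step. In the knockout libraries, 98.6% to 98.7% of the low values were whole multiples within 0.02. As the rest were not, and 13 to 22 values per knockout library were fractions below the step, no count model was run. The sources used here name no annotation, multi-mapping or strand setting.

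The 6 knockout libraries were fitted as log2(RPKM + 1) for genes reaching 1 RPKM in 3 or more libraries, with limma 3.58.1 in R 4.3.3 (group means, mean-variance trend, Benjamini-Hochberg adjustment, threshold 0.05), after testing on simulated data. Positions come from RefSeq GRCm38.p6, matched by gene ID for 99.6% of genes. Libraries shared at most 0.0118% identical values above 0. Every column was assigned to a sample.

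Genes and lists were chosen with earlier results of these data known. Genes named are those the paper discusses for this tissue, the 15 largest called changes in each direction with a group mean of at least 5 RPKM and no overlap, up to 4 members of each list with the smallest p, and called genes within 10 Mb of Ros1 or Gm1673. Cnn1, Pcp4l1, Myh11, Acta1, Vcl, Tpm2, Glo1, Mup5, Shisa7, Cdh24 and Adamts10 lie outside this rule. The alternatives changed the pseudocount, filter, scaling, variance model or threshold, fitted all 9 libraries, added a replicate block or left out each library. Figures were drawn with matplotlib 3.10.9.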

Additional observations from a re-analysis of the deposited data

How the results depend on the processing

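Of 89 genes lower and 31 higher in Ros1-/-, the counts stayed within 1.5 times under pseudocounts of 0.25 and 4, a minimum of 5 RPKM, both other scalings, no trend and a robust prior. They were 21 and 18 with no filter, 171 and 60 with all 9 libraries in the fit, and 273 and 117 at an adjusted p under 0.10. The test named in the study's methods was applied without the RPKM minimum, to the deposited table of 24346 genes. At an unadjusted p under 0.05 it called 1261 lower and 1132 higher, so these counts come from a larger set of genes. Leaving out each library gave 5 to 160 lower and 3 to 138 higher genes, with fewer libraries by construction. The scalings moved the median of all genes by at most 0.01. The log2 fold change of Ovch2, 0.02, turned to -0.016 with quantile normalization, to -0.025 without Nicol-/- replicate 2 and to -0.019 without Nicol-/- replicate 3. A replicate block gave 16 lower and 11 higher genes, of which 12 and 10 were among the 89 and 31; where not stated, the cause of a moved count was not tested. Deviations of same-numbered libraries had correlations of -0.11, 0.15 and 0.12, so the numbers were not taken to pair the libraries. Count-model fits were not run, since not every value was a whole number of reads. What depth and the number of libraries limit was not compared.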
